A study of Homo sapiens with 9 samples.

Results

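The nuclear genes of oxidative phosphorylation were followed in A2780 cells, an established human ovarian carcinoma line, without drug and after 24 h with DIG-MSK at 8 nM or 80 nM. DIG-MSK is an analogue of the antitumour antibiotic mithramycin A, and drugs of this family bind GC-rich DNA. Genes were chosen by symbol, as those with a RefSeq mRNA probe whose current symbol begins with NDUFA, NDUFB, NDUFC, NDUFS, NDUFV, UQCR, COX4 to COX8 or ATP5, or is CYC1 or SDHA to SDHD. The rule uses no measured values, but it was set with earlier results of these data known. The rule took 94 genes with 116 probes, of 35010 genes or unnamed targets and 42405 gene probes on the array, and 77 of them had 1 probe. It took 37 genes of complex I, 4 of complex II, 9 of complex III, 17 of complex IV and 19 of complex V, in each case with paralogs and isoforms, and 8 assembly factors of complex I that carry the NDUFAF name and are not subunits.

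Each of the 3 groups had 3 arrays, hybridised with RNA from cultures that the methods describe as independent biological replicates, and all groups were of the same line. The untreated cultures were labelled as given no drug, and whether they received the solvent was not given in the sources used here. All untreated and 8 nM arrays were on slide 1 and all 80 nM arrays on slide 2, scanned separately, so an effect of 80 nM and one of slide or scan cannot be told apart. On the 9 arrays the 75th percentile of the processed signal lay between 511 and 750, between 25047 and 27459 probes were well above background, and replicates of a group correlated at 0.989 or more. Of 8 markers of epithelial and ovarian carcinoma cells, 4 (KRT8, KRT18, KRT19 and EPCAM) were well above background on all arrays, while CDH1, WT1 and MUC16 were on none. Markers of other cells were mixed, as 1 of 3 leukocyte, 1 of 3 endothelial and 3 of 4 fibroblast markers were well above background on all arrays, and PDGFRA, a receptor of the fibroblast list, averaged 1.91 without drug, 2.16 at 8 nM and -4.59 at 80 nM. DCN of the same list averaged -1.25, -1.28 and -2.65, LUM -4.75, -4.79 and -5.50 and PDGFRB -3.09, -2.51 and -3.09, and the part of these markers in the results was not tested. In RNA from whole cultures scaled within each array, fewer cells that express a gene and less of its RNA per cell cannot be told apart.

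Oxidative phosphorylation passes electrons from NADH through complex I, or from succinate through complex II, to complex III, cytochrome c and complex IV, where oxygen is reduced, and the proton gradient built on the way drives the ATP synthase, complex V. Most subunits are encoded in the nucleus and imported, while a small set is encoded by mitochondrial DNA, so that the complexes depend on the output of both genomes. Promoters of the nuclear genes are often without a TATA box and rich in G and C, with sites for Sp1, for the ETS factor GABP (also called NRF2) and for nuclear respiratory factor 1 (NRF1).

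RefSeq promoters on GRCh38.p14, from 250 bases before to 50 after the start, were at hand for 77 of the 94 genes. The GC box GGGCGG, the letters that Sp1 binds, was searched on both strands because mithramycins bind such DNA. It stood in 57.1% of the 77 promoters, against 44.6% of all 27305 promoters of the same length and 67% of the 11223 promoters of genes tested. An ETS core, CCGGAAG, was in 27.3%, 10.67% and 18% of the same sets. The NRF1 core, TGCGCA, was in 28.6%, 8.42% and 12.9%. A YY1 core, ATGGCGG, whose last letters resemble a GC box, was in 26%, 5.72% and 9.78%. The share with a GC box was therefore above that of all promoters and below that of the promoters of genes tested, while the shares with the other letters were above both. The 250 bases before the start are given for a few genes that moved apart at 80 nM, written 5' to 3' along the gene, with GC boxes of either strand in capitals. NDUFA10 and NDUFV3 are the complex I subunits that fell most and COX6A2, COX7A2L and SDHB are risers of complexes IV and II.
NDUFA10, chr2:240025343-240025592, minus strand, fell by 0.80: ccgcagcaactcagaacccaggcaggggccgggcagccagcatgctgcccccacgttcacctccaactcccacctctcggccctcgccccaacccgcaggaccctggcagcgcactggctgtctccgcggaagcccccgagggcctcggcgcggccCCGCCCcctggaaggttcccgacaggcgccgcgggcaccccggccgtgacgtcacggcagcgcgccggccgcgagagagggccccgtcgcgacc
NDUFV3, chr21:42893059-42893308, plus strand, fell by 0.68: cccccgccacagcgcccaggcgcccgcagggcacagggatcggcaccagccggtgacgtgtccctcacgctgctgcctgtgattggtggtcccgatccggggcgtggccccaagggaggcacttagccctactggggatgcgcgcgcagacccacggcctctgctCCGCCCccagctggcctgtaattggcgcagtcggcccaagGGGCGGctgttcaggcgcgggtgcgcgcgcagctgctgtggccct
COX6A2, chr16:31428361-31428610, minus strand, rose by 0.66: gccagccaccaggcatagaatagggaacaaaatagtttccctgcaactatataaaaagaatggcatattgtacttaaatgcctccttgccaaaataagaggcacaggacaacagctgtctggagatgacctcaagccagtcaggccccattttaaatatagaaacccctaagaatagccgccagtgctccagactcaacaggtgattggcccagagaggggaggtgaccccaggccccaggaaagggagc
COX7A2L, chr2:42361218-42361467, minus strand, rose by 0.57: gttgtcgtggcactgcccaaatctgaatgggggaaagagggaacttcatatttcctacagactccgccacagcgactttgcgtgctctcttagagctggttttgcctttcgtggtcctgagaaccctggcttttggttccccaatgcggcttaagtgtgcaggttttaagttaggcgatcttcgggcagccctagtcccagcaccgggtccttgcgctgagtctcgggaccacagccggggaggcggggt
SDHB, chr1:17054033-17054282, minus strand, rose by 0.53: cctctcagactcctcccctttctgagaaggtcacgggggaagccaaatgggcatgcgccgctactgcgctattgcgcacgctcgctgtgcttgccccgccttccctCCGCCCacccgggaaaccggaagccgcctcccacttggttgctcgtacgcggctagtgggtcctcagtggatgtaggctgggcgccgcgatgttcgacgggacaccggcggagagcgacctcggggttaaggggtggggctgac
The NDUFA10 and NDUFV3 stretches hold 1 and 2 GC boxes, SDHB holds 1, and those of COX6A2 and COX7A2L hold 0. COX7A2L has a single box in the full 300 bases, outside the stretch shown. Over the 300 bases G+C made up 74.3% for NDUFA10, 72.7% for NDUFV3, 67% for SDHB, 59% for COX7A2L and 52% for COX6A2. These few do not stand for their groups. The median G+C was 61.83% for the 30 promoters of genes that fell and 60.83% for the 42 with no call. It was 59% for the 3 that rose and 64.67% for the promoters of genes tested. ATP5F1B and NDUFC2, which rose most, had no promoter at hand.

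Levels are log2 of the processed signal relative to the 75th percentile of its own array, and a probe's level is set only against itself. A change is a difference of 2 group means of these levels. A gene rose or fell where limma with Benjamini-Hochberg adjustment over all 21981 genes tested gave an adjusted p under 0.05. Counts by the fold rule of the methods are given beside it, which asks for 1.5-fold up or 0.67-fold down and for a p under 0.05. The methods do not say whether that p was adjusted, and the unadjusted p was used here. Of the 94 genes, 91 passed the filter, since 1 or more groups had them well above background on each of its 3 arrays, and 90 of them were so on all 9 arrays. COX7A1, the isoform of heart and skeletal muscle, COX7B2 and COX8C, both known from testis, did not pass and were not tested, being above background on 1, 1 and 3 of the 9 arrays.

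At 8 nM the respiratory chain genes moved little. Of the 91, 0 rose and 1 fell, NDUFAF2, beside 7.22% of all genes that rose and 4.95% that fell. At an unadjusted p under 0.05, 3 were higher and 5 lower, and the fold rule called 0 in either direction, beside 4.3% of all genes up and 3% down. The median change was -0.02 over the 91 and -0.06 over all genes, and single changes lay between -0.38 and 0.63 with standard errors of 0.10 in the median. The 0.63 was NDUFAF8 (standard error 0.34), whose untreated arrays lay apart, as given below. Among the subunits the highest change was 0.27. The 3 arrays at 8 nM lay above all untreated arrays for 5 genes (15.4% of all genes) and below them for 7 (17.9% of all genes).

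NDUFAF2, an assembly factor that binds complex I late in its assembly, read 4.02, 3.89 and 3.81 without drug, 3.44, 3.64 and 3.49 at 8 nM and 3.03, 3.14 and 3.11 at 80 nM. The groups did not overlap and each concentration was below the one before. It fell by 0.38 (standard error 0.09, adjusted p = 0.026) at 8 nM and by 0.81, a 1.76-fold decrease, at 80 nM (standard error 0.09, adjusted p = 8.8e-05), and from 8 nM to 80 nM it fell by 0.43 (adjusted p = 0.0032). The call at 8 nM was lost, with an unchanged direction, in 10 of the alternative settings, among them leaving out untreated replicate 1 (-0.33) or 2 (-0.39), 8 nM replicate 1 (-0.34) or 3 (-0.37), or 80 nM replicate 3 (-0.38).

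SDHA, the flavoprotein that oxidises succinate, was among the 5 genes above the untreated arrays at 8 nM, at 4.62, 4.93 and 4.58 against 4.55, 4.38 and 4.39, and its change of 0.27 had an adjusted p of 0.15. COX6A2 was lower on the 8 nM arrays, at -4.16, -4.45 and -3.99 against -3.89, -3.94 and -3.85, a change of -0.30 with an adjusted p of 0.19. These groups did not overlap, but the differences missed the threshold.

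One 8 nM array stood apart. The median over the 91 genes of the level minus the untreated mean was -0.11 and -0.12 on 8 nM replicates 1 and 3 and 0.17 on replicate 2, where the median over all genes was 0.00. It also had the lowest 75th percentile (511) and the fewest probes above background (25047) of the 9 arrays, and whether these bear on the shift was not tested. Without that array 11 of the 91 genes fell and 0 rose, with a median change of -0.12, and 10.6% of all genes fell and 7.95% rose, so the count that fell was near that of all genes.

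**Figure D1:**
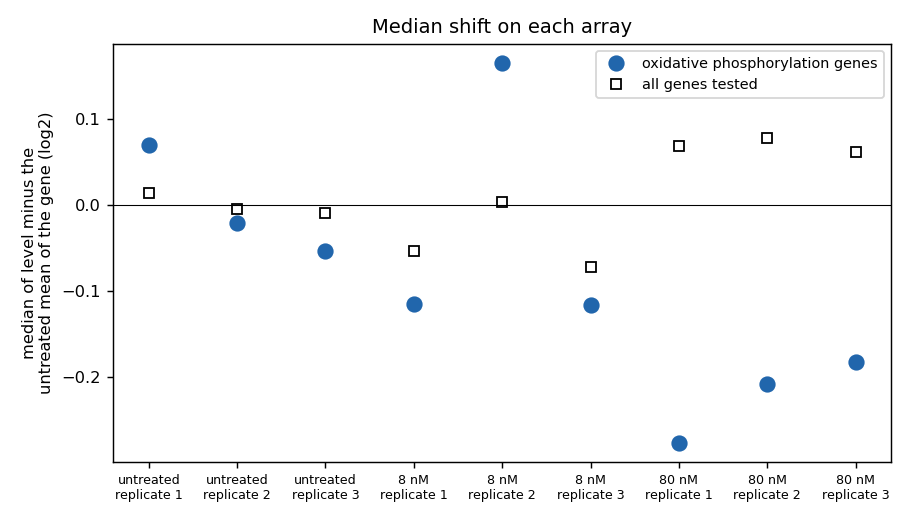
Median over genes of the level on each array minus the untreated mean of the same gene (log2), for the 91 oxidative phosphorylation genes (filled circles) and all 21981 genes tested (open squares). At 80 nM the circles lie between -0.28 and -0.18 and the squares between 0.06 and 0.08, and 8 nM replicate 2 stands above the other 8 nM arrays at 0.17.

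At 80 nM more of these genes fell than rose, by small amounts. Of the 91 genes, 34 (37.4%) fell and 8 (8.79%) rose, while 25.2% of all genes fell and 32.5% rose (57.7% in all). The median change was -0.23 over the 91 and 0.08 over all genes, so that the respiratory genes lay 0.30 below the median gene. The changes ran from -0.81 for NDUFAF2 to 0.77 for ATP5F1B, and 70 of 91 were below 0. By the fold rule 4 were down (NDUFAF2, NDUFA10, NDUFV3 and NDUFA3) and 3 up (ATP5F1B, NDUFC2 and COX6A2), beside 16.5% and 18.8% of all genes (35.3% in all). The 80 nM arrays lay below all untreated arrays for 52 of the 91 genes and above them for 14, beside 31.7% and 40% of all genes.

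On each 80 nM array in turn, the median shift of the 91 genes was below 0, at -0.28, -0.21 and -0.18, where that of all genes was 0.07, 0.08 and 0.06. Probes of these genes were bright, 76 of the 91 lying among the 2198 genes with the brightest probes. Of those 2198 genes 23.5% fell and 24.5% rose, with a median of 0.00, and the 76 respiratory genes among them had a median of -0.22. Leaving out untreated replicate 2 left 22 of the 91 that fell, beside 22.2% of all genes, and leaving out 80 nM replicate 1 left 23, beside 21.5%. In both fits the share that fell was near that of all genes, while 6 of the 91 rose, beside 28.9% and 28.4%. Leaving out untreated replicate 1 or 3 left 24 and 29 that fell, beside 21.7% and 21.9%. Leaving out 80 nM replicate 2 or 3 left 25 and 24, beside 22.8% and 21.3%. With scaling to 10 spike-in control probes the median of all genes moved from 0.08 to -0.20 and that of the 91 to -0.50, 34 genes fell, 31 of them the same, and 0 rose, while 5079 of all genes fell and 1822 rose against 5533 and 7141 without it.

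**Figure D2:**
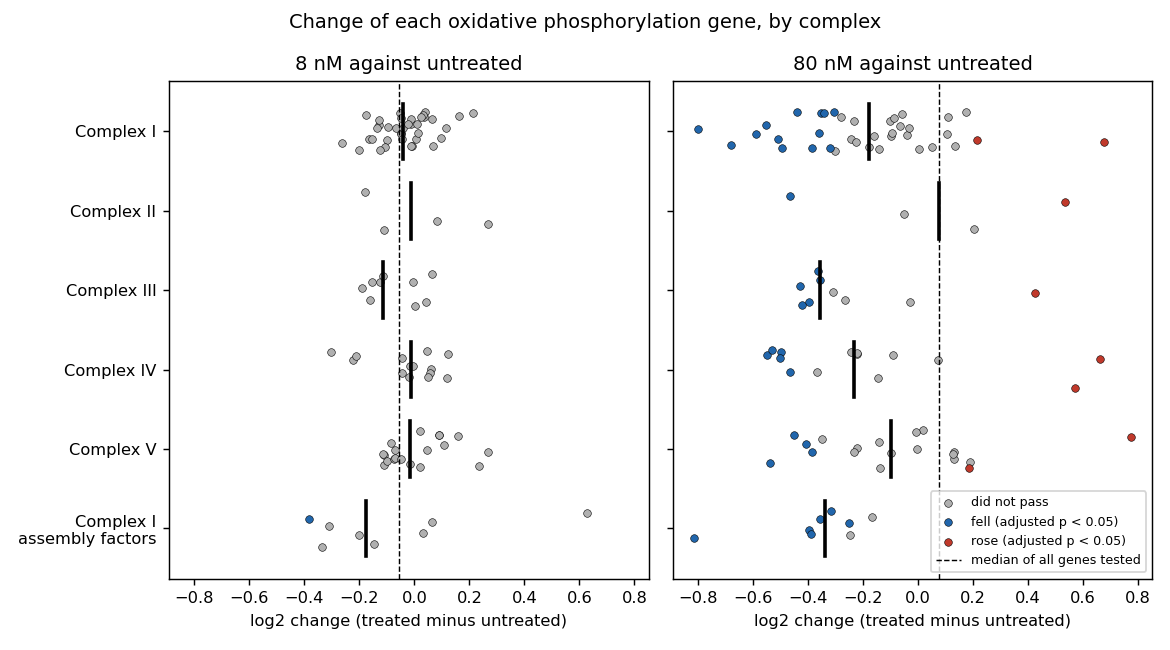
Log2 change of each of the 91 genes at 8 nM (left) and 80 nM (right) against untreated, by complex. Blue points fell, red points rose and grey points did not pass an adjusted p of 0.05, thick bars are medians of a complex and the dashed line is the median of all genes tested. At 80 nM complex III and the assembly factors have the lowest medians, -0.36 and -0.34, and 8 genes are red, none of which rose with spike-in scaling.

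Complex I takes electrons from NADH, and 13 of its 37 genes (35.1%) fell and 2 (5.41%) rose at 80 nM (median -0.18). Of all genes 25.2% fell and 32.5% rose. Supernumerary subunits, which surround the conserved core, gave 11 of the fallers among 30 genes (median -0.20). Of the 7 nuclear core subunits, which carry the flavin, the iron-sulfur clusters and part of the quinone site, 2 fell (median 0.11). With spike-in scaling 1 of the 7 fell (median -0.17).

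NDUFA10, an accessory subunit of the membrane arm, read 4.32, 4.21 and 4.23 without drug, 4.03, 4.45 and 3.98 at 8 nM and 3.44, 3.38 and 3.54 at 80 nM. NDUFV3, a small subunit of the NADH-binding module, read 5.71, 5.70 and 5.59, then 5.51, 5.84 and 5.52, then 4.94, 5.03 and 4.99. NDUFA3, a membrane arm subunit, read 5.96, 5.89 and 5.74, then 5.73, 6.21 and 5.84, then 5.19, 5.32 and 5.31. In all of them the 80 nM arrays were the lowest of the 9 and the other groups overlapped. NDUFA10 fell by 0.80 (standard error 0.13), a 1.74-fold decrease with an adjusted p of 0.00077. NDUFV3 fell by 0.68 (standard error 0.10, adjusted p = 0.00055), 1.6-fold, and NDUFA3 fell by 0.59 (standard error 0.13, adjusted p = 0.0045), 1.5-fold. Further fallers were NDUFA7 (-0.55), NDUFB3 (-0.51), NDUFB1 (-0.50), NDUFS4 (-0.44), NDUFB2 (-0.39), NDUFS5 (-0.35), NDUFS6 (-0.34) and NDUFA5 (-0.31), all supernumerary. Among these, NDUFB2, NDUFS6, NDUFA5 and NDUFS5 lay nearest the threshold, with adjusted p of 0.024, 0.031, 0.039 and 0.042.

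NDUFV1, the core subunit that binds NADH and flavin, read 6.17, 6.22 and 6.16 without drug and 5.73, 5.85 and 5.89 at 80 nM and fell by 0.36 (standard error 0.11, adjusted p = 0.019). That call was lost without untreated replicate 2 (-0.34) or 80 nM replicate 1 (-0.32). NDUFS1, the largest iron-sulfur core subunit, read 4.67, 4.65 and 4.67 without drug, 4.45, 4.49 and 4.51 at 8 nM and 4.27, 4.36 and 4.39 at 80 nM. Its groups did not overlap, and it fell by 0.32 at 80 nM (standard error 0.07, adjusted p = 0.0037), while the -0.18 at 8 nM had an adjusted p of 0.12. With spike-in scaling NDUFS1 was not called at 80 nM.

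NDUFC2, a supernumerary subunit of the membrane arm, went the other way, at 5.36, 5.21 and 5.26 on the 80 nM arrays against 4.65, 4.68 and 4.48 without drug and 4.42, 4.69 and 4.38 at 8 nM. Every 80 nM array was above the other 6, and the gene rose by 0.68, 1.6-fold (standard error 0.10, adjusted p = 0.00068), a change of 0.40 and not called with spike-in scaling.

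Of the 8 NDUFAF assembly factors, 6 (75%) fell and 0 rose at 80 nM (median -0.34), beside 25.2% and 32.5% of all genes. Besides NDUFAF2 these were NDUFAF1 (-0.40, adjusted p = 0.0062), NDUFAF7 (-0.39, adjusted p = 0.0038), NDUFAF4 (-0.36), NDUFAF5 (-0.32) and NDUFAF6 (-0.25). NDUFAF1 is a partner in early membrane arm assembly and NDUFAF7 a methyltransferase. NDUFAF8 was not called on its brighter probe (-0.17, standard error 0.34), where untreated replicate 1 read 4.72 and the other untreated arrays 6.13 and 6.09. On its second probe the untreated arrays read 5.42, 5.30 and 5.29 and the 80 nM arrays 4.60, 4.73 and 4.67, a change of -0.67 with an adjusted p of 0.0014.

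Complex II, succinate dehydrogenase, is wholly nuclear and also works in the citric acid cycle, and its 2 catalytic subunits moved in opposite directions at 80 nM. SDHA read 4.55, 4.38 and 4.39 without drug and 3.87, 3.98 and 4.08 at 80 nM. SDHB, the iron-sulfur subunit, read 3.71, 3.95 and 3.75 without drug, 3.58, 3.63 and 3.66 at 8 nM and 4.26, 4.29 and 4.47 at 80 nM. The 80 nM arrays were the lowest of the 9 for SDHA and the highest for SDHB. SDHA fell by 0.46 (standard error 0.11, adjusted p = 0.0075) and SDHB rose by 0.53, 1.45-fold (standard error 0.09, adjusted p = 0.0013), a rise that was 0.26 and not called with spike-in scaling. The 3 dimmer probes of SDHA had changes of -0.08, -0.13 and -0.14 at 80 nM, none past the threshold.

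The membrane anchors were not called on their brightest probes. SDHD read 2.56, 2.51 and 2.32 without drug and 2.81, 2.52 and 2.67 at 80 nM, a change of 0.20 with an adjusted p of 0.12. SDHC was -0.05 (adjusted p = 0.74) on its brightest probe, where the groups overlapped, but its other probes moved apart. Probe A_33_P3326682 read -0.07, -0.12 and 0.01 without drug and -1.16, -0.96 and -1.02 at 80 nM, a change of -0.99 (adjusted p = 4.2e-05). Probe A_24_P233850 read 1.25, 1.94 and 1.66 without drug and 2.84, 2.57 and 2.74 at 80 nM, a change of 1.10 (adjusted p = 0.00048). Each probe is annotated with a RefSeq mRNA, but probe sequences were not used here, so which SDHC transcripts each probe reads is uncertain. SDHC thus has no single direction.

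**Figure D3:**
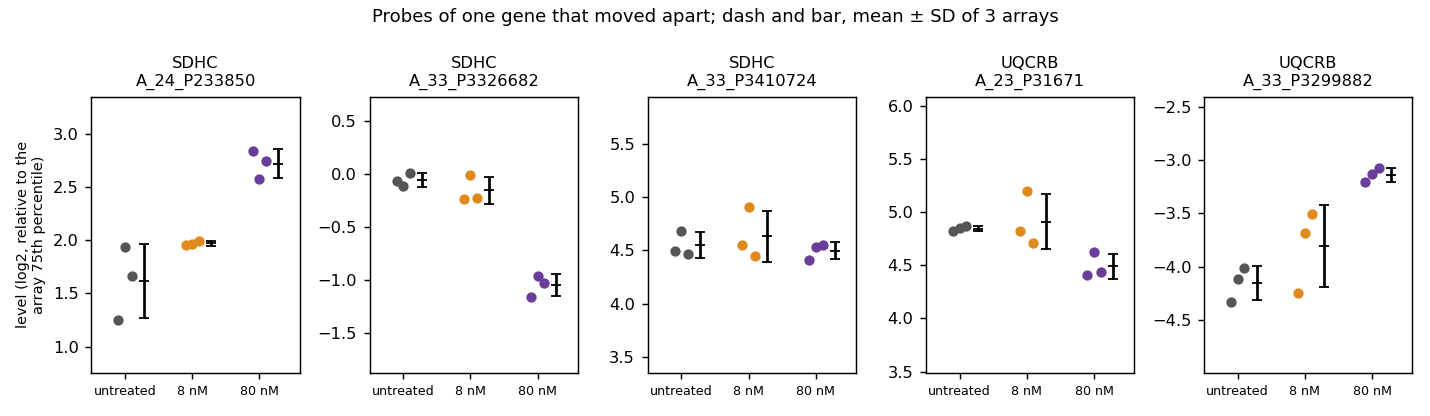
Levels (log2, relative to the 75th percentile of the array) of the 3 SDHC and 2 UQCRB probes on each array, with the mean and SD of 3 arrays beside the points. Each panel spans the same range of 2.6 log2 units on its own axis, and at 80 nM one SDHC probe is higher by 1.10 and another lower by 0.99, and one UQCRB probe is higher by 1.02 and the other lower by 0.36.

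Complex III passes electrons from ubiquinol to cytochrome c. At 80 nM 5 of its 9 genes (55.6%) fell and 1 (11.1%) rose, beside 25.2% and 32.5% of all genes. Its median was the lowest of the complexes (-0.36). UQCRFS1, the Rieske iron-sulfur protein, read 6.28, 6.19 and 6.16 without drug, 5.97, 6.26 and 5.93 at 8 nM and 5.72, 5.84 and 5.80 at 80 nM, and it fell by 0.42 (standard error 0.10, adjusted p = 0.0068). CYC1, the cytochrome c1 that takes the electron from it, read 4.86, 4.80 and 4.86, then 4.65, 4.71 and 4.68, then 5.18, 5.31 and 5.31, and it rose by 0.43, 1.34-fold (standard error 0.07, adjusted p = 0.0011). These redox partners thus moved in opposite directions, although CYC1 was 0.15 and not called with spike-in scaling.

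Among the remaining subunits of complex III, UQCRC2, a core protein, read 4.49, 4.39 and 4.39 without drug and 3.96, 4.01 and 4.02 at 80 nM and fell by 0.43 (adjusted p = 0.0051). Its partner UQCRC1 did not pass, at 4.66, 4.76 and 4.72 without drug and 4.64, 4.72 and 4.70 at 80 nM (-0.03, adjusted p = 0.81). UQCR11 fell by 0.40 (adjusted p = 0.029) and UQCR10 by 0.36 (adjusted p = 0.046). The UQCR11 call was lost without untreated replicate 1 (-0.35) or 2 (-0.40) or without any one of the 80 nM arrays (-0.35 to -0.43). UQCRB, which helps to form the quinone site, read 4.82, 4.85 and 4.87 without drug and 4.41, 4.62 and 4.44 at 80 nM on its brighter probe and fell by 0.36 (adjusted p = 0.041), a call lost without any one untreated array (-0.35 to -0.37) or without 80 nM replicate 1 (-0.32) or 3 (-0.33). Its second probe, made for another transcript, read -4.33, -4.12 and -4.01 without drug and -3.21, -3.13 and -3.07 at 80 nM, a change of 1.02 (adjusted p = 0.0014), so the direction of UQCRB depends on the probe.

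Complex IV reduces oxygen, and 5 of its 14 genes tested (35.7%) fell and 2 (14.3%) rose at 80 nM (median -0.23). Of all genes 25.2% fell and 32.5% rose. Of the 10 common subunits 5 fell and 0 rose (median -0.34). COX5A read 4.57, 4.42 and 4.43 without drug, 4.43, 4.54 and 4.31 at 8 nM and 3.85, 3.98 and 3.95 at 80 nM, and it fell by 0.55 (standard error 0.09, adjusted p = 0.00088). COX6C read 6.15, 6.05 and 6.05 without drug and 5.48, 5.63 and 5.54 at 80 nM and fell by 0.53 (adjusted p = 0.012). The other common subunits that fell were COX7C (-0.50, adjusted p = 0.0066), COX5B (-0.50) and COX7B (-0.47).

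COX4I1, an early assembling and regulatory subunit, read 5.98, 5.86 and 5.72 without drug and 5.77, 5.75 and 5.76 at 80 nM, and its change of -0.09 (standard error 0.08, adjusted p = 0.37) did not pass. COX8A was at 0.07 (adjusted p = 0.47), COX6B1 at -0.14 (adjusted p = 0.39), COX7A2 at -0.22 (adjusted p = 0.19) and COX6A1 at -0.22 (adjusted p = 0.086). The last 3 lay below all untreated arrays at 80 nM without passing the test. COXFA4, long named NDUFA4 and now placed in complex IV, is no member under its current symbol, and it fell by 0.41 (adjusted p = 0.015).

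The remaining genes of complex IV are isoforms known from muscle, lung or testis and a paralog. COX6A2, the heart and muscle form of subunit 6A, read -3.89, -3.94 and -3.85 without drug, -4.16, -4.45 and -3.99 at 8 nM and -3.49, -3.08 and -3.13 at 80 nM. Every 80 nM array was above the other 6, and the gene rose by 0.66, 1.58-fold (standard error 0.14, adjusted p = 0.0041), while its common counterpart COX6A1 was at -0.22 and not called. With spike-in scaling COX6A2 was at 0.38 and not called. COX6B2, the testis form, read 3.71, 3.31 and 3.47 without drug and 3.18, 3.09 and 3.13 at 80 nM (-0.37, adjusted p = 0.092), and its second probe was at 0.33 (adjusted p = 0.041). COX4I2, the form linked to low oxygen, was at -0.24 (adjusted p = 0.3) and was above background on only 2 of the 80 nM arrays. COX7A2L, a paralog that joins complexes III and IV into supercomplexes, read 4.29, 4.28 and 4.15 without drug and 4.77, 4.80 and 4.86 at 80 nM and rose by 0.57, 1.48-fold (standard error 0.08, adjusted p = 0.00048), and was at 0.29 and not called with spike-in scaling. COXFA4L2, the paralog of COXFA4 that is induced by hypoxia and is no member either, rose by 1.20 (adjusted p = 0.0002).

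**Figure D4:**
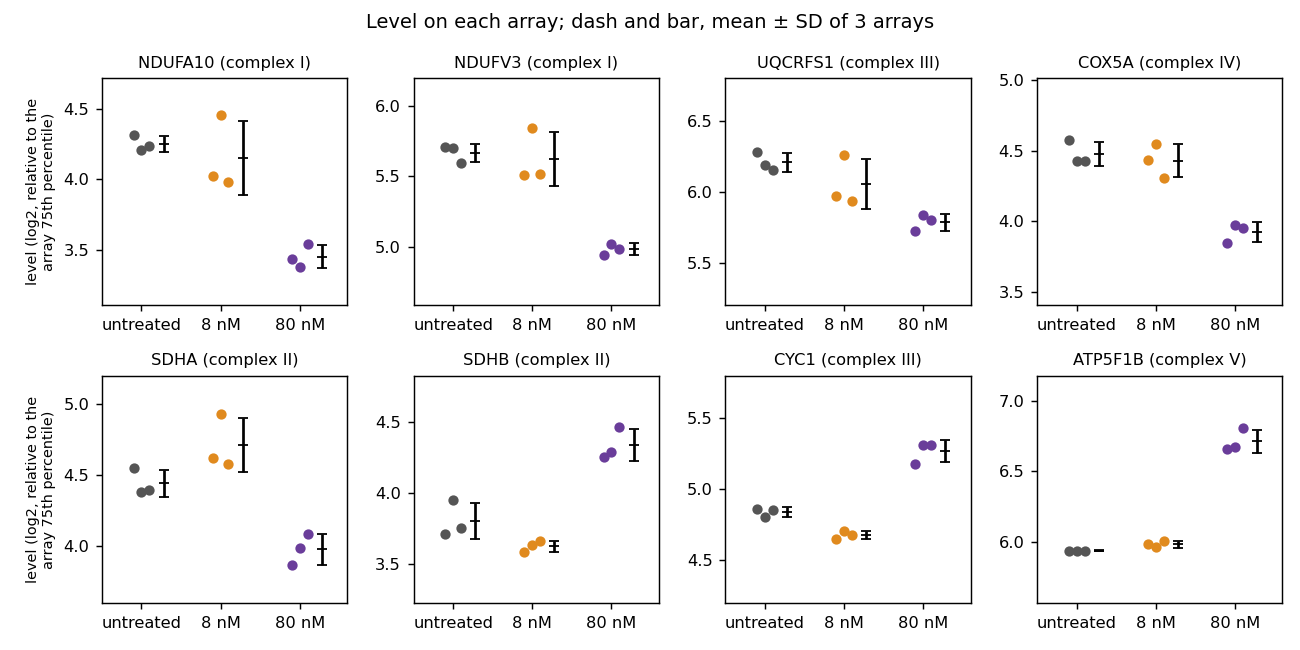
Levels (log2, relative to the 75th percentile of the array) of 8 genes on each array, each on its brightest probe, with the mean and SD of 3 arrays beside the points. Every panel spans 1.6 log2 units, and the 3 arrays at 80 nM lie below the other 6 for NDUFA10, NDUFV3, UQCRFS1, COX5A and SDHA and above them for SDHB, CYC1 and ATP5F1B, where the rises of 0.53, 0.43 and 0.77 were 0.26, 0.15 and 0.50 and not called with spike-in scaling.

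Complex V makes ATP, and at 80 nM 4 of its 19 genes (21.1%) fell and 2 (10.5%) rose (median -0.10). These shares were below the 25.2% of all genes that fell and the 32.5% that rose. The risers were subunits of F1, the part that includes the catalytic head. ATP5F1B, the catalytic beta subunit, read 5.94 on each untreated array, 5.99, 5.96 and 6.01 at 8 nM and 6.66, 6.68 and 6.81 at 80 nM, and it rose by 0.77, 1.71-fold (standard error 0.07, adjusted p = 3.4e-05), or by 0.50 and not called with spike-in scaling. Its partner in the head, the alpha subunit ATP5F1A, read 6.44, 6.42 and 6.37 without drug and 6.58, 6.49 and 6.55 at 80 nM, a change of 0.13 (standard error 0.07, adjusted p = 0.16) with arrays that did not overlap. ATP5F1D, the delta subunit, rose by 0.18 (adjusted p = 0.046), a call lost without any one untreated or 80 nM array or without 8 nM replicate 1 (0.18 to 0.20), and with spike-in scaling it was -0.093.

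ATP5F1E, the epsilon subunit of F1, went down, from 7.95, 7.72 and 7.75 without drug to 7.18, 7.30 and 7.32 at 80 nM. It fell by 0.54 (standard error 0.13, adjusted p = 0.0064). ATP5ME, a membrane subunit, fell by 0.45 (adjusted p = 0.013), and of the stalk subunits ATP5PO fell by 0.41 (adjusted p = 0.041) and ATP5PF by 0.39 (adjusted p = 0.0033). ATP5PO lost its call without any one untreated or 80 nM array (-0.36 to -0.44) and without 8 nM replicate 3. The c-ring genes ATP5MC1, ATP5MC2 and ATP5MC3 were at -0.00, 0.13 and 0.19 with 0 calls. ATP5IF1, the inhibitor that stops the synthase from running backwards, was at -0.35 (adjusted p = 0.051), with 6.54, 6.56 and 6.66 at 80 nM below 7.07, 6.89 and 6.84 without drug, and its second probe was at 0.05 (adjusted p = 0.72). NDUFA12 and NDUFB8 of complex I also had a second probe that fell, by 0.51 (adjusted p = 0.0031) and 0.64 (adjusted p = 0.0011), beside brighter probes at -0.03 and -0.24 that did not pass.

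Between the concentrations, 31 of the 91 genes were lower at 80 nM than at 8 nM and 9 higher by the same test, beside 22.6% and 33.8% of all genes (56.4% in all). The median difference was -0.15 over the 91 and 0.11 over all genes, and the fold rule called 7 lower and 5 higher, beside 14.4% and 19.3% of all genes. The 80 nM arrays lay below all 8 nM arrays for 41 genes and above them for 10, beside 25.5% and 38.3%. Without 8 nM replicate 2 the median was -0.06, with 24 of the 91 lower and 13 higher, beside 23.6% and 36.3% of all genes. Without 80 nM replicate 1 there were 19 of the 91 lower, beside 19.5%. In both fits the share that was lower was near that of all genes. With spike-in scaling 0 were higher.

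Genes that passed here and not against untreated included ATP5IF1 (-0.62, adjusted p = 0.0044), the paralog ATP5MGL (-0.45, adjusted p = 0.0021), COX6A1 (-0.28, adjusted p = 0.038), SDHD (0.31, adjusted p = 0.028) and ATP5F1C, the gamma subunit (0.24, adjusted p = 0.023). The second probe of ATP5IF1 was at -0.21 and not called (adjusted p = 0.16). On its brighter probe ATP5IF1 read 7.004, 7.51 and 7.10 at 8 nM and ATP5MGL 5.05, 5.20 and 4.94 at 8 nM against 4.55, 4.62 and 4.66 at 80 nM, with no overlap in either. The calls of COX6A1, SDHD and ATP5F1C were lost without 80 nM replicate 1 (-0.25, 0.24 and 0.23), among other arrays. The change from untreated to 8 nM, by which the 2 contrasts differ, passed for none of these 5 genes. COX6A2 rose most in this contrast, by 0.96, 1.95-fold (standard error 0.14, adjusted p = 0.00056). SDHA, at -0.73 on its brightest probe (adjusted p = 0.00071), fell most among the subunits, the assembly factor NDUFAF8 at -0.79 missing the threshold (adjusted p = 0.078). The dimmer probes of SDHA were not called at 80 nM against untreated, as given above.

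Nuclear regulators of mitochondrial genes were a list of 28, of which 27 were tested. At 80 nM 12 (44.4%) fell and 6 (22.2%) rose (median -0.20), beside 25.2% and 32.5% of all genes. At 8 nM 5 (18.5%) fell and 0 rose, beside 4.95% and 7.22% of all genes. With spike-in scaling 11 fell and 0 rose at 80 nM, beside 5079 and 1822 of all 21981 genes, and 0 fell at 8 nM. PPARGC1B, a coactivator of respiratory genes, read 0.80, 0.73 and 0.83 without drug, 0.27, 0.05 and 0.33 at 8 nM and -0.76, -0.59 and -0.63 at 80 nM. Its changes were -0.57 (adjusted p = 0.007) and -1.44 (standard error 0.09, adjusted p = 4.6e-06). TFAM, which packages and transcribes mitochondrial DNA, read 4.61, 4.40 and 4.46 without drug, 3.85, 3.92 and 3.73 at 8 nM and 3.28, 3.50 and 3.37 at 80 nM. There was no overlap between groups, and TFAM fell by 0.65 at the lower concentration, with an adjusted p of 0.0039, and by 1.11 at the higher, with an adjusted p of 2.4e-05. The respiratory factor NRF1 fell by 0.78 (adjusted p = 8.1e-05) at 80 nM, and at 8 nM it was at -0.21 (adjusted p = 0.13).

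The subunits of GABP moved in opposite directions at 80 nM. GABPA, its DNA-binding subunit, read 0.10, 0.51 and 0.30 without drug and 1.15, 1.01 and 1.10 at 80 nM and rose by 0.78 (adjusted p = 0.00048), or was at 0.50 and not called with spike-in scaling. GABPB1, its activating subunit, read 1.31, 1.09 and 1.08 without drug and 0.29, 0.22 and 0.28 at 80 nM and fell by 0.90 (adjusted p = 0.0001). Others called by the fold rule were MYC (-1.12), TWNK, the helicase of mitochondrial DNA (-0.76), TFB1M (-0.71), HIF1A (-0.65) and ESRRG (-0.59).

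**Figure D5:**
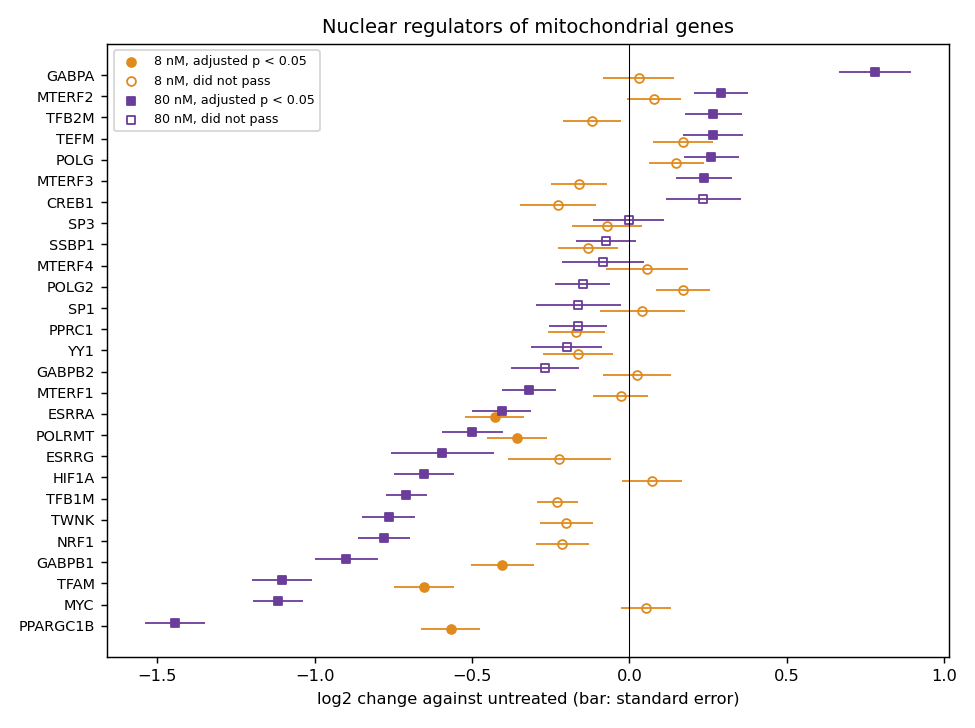
Log2 change against untreated of the 27 regulators tested at 8 nM (orange circles) and 80 nM (purple squares), with standard errors as bars and filled symbols for an adjusted p under 0.05. PPARGC1B, MYC and TFAM lie lowest at 80 nM, at -1.44, -1.12 and -1.11, and GABPA highest at 0.78, which was 0.50 and not called with spike-in scaling.

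Other lists of mitochondrial function are given for comparison. Of all genes 25.2% fell and 32.5% rose at 80 nM, and by the fold rule 16.5% were down and 18.8% up. Of 41 further assembly factors tested, 12 (29.3%) fell and 8 (19.5%) rose at 80 nM (median -0.11). The share that fell was near that of all genes. COA7 (-0.88), NUBPL, which delivers iron-sulfur clusters to complex I (-0.76), and SDHAF1 (-0.66) were down by the fold rule, and LYRM7 (0.98), TMEM126B (0.74), COX15 (0.73) and COX19 (0.68) were up, and none of these 4 was called with spike-in scaling. Of 79 mitochondrial ribosomal proteins 22 (27.8%) fell and 6 (7.59%) rose (median -0.09), the share that fell again near that of all genes. By the fold rule 6 were down, among them MRPS17 (-0.93) and MRPL14 (-0.84), and 2 up, MRPS30 (1.10) and MRPL49 (0.72). With spike-in scaling 20 of the 79 fell and 1 rose (median -0.37), beside 5079 and 1822 of all 21981 genes. Of 18 citric acid cycle enzymes 3 (16.7%) fell and 5 (27.8%) rose (median 0.09, and -0.19 with 0 risers with spike-in scaling). Among them OGDH (-0.89) was down and IDH3A (0.73) and IDH3G (0.62) were up. OGDH was also down by the fold rule at 8 nM (-0.65, adjusted p = 0.011). Of 79 cytosolic ribosomal proteins 18 (22.8%) rose and 0 fell (median 0.16), RPL27A (0.92) by the fold rule too, with 0 lower at an unadjusted p under 0.05. However, 20 rose and 16 fell with quantile normalization (median 0.03) and 0 rose and 0 fell with spike-in scaling (median -0.11). GAPDH, a glycolytic gene used as a reference, was at -0.04 (adjusted p = 0.72).

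The change at 80 nM was also set beside the promoter letters for the 75 genes with both values, as a description. The median was -0.22 for the 44 genes with a GC box and -0.30 for the 31 without. A GC box was in 16 of 30 promoters of genes that fell (53.3%), 2 of 3 of genes that rose and 26 of 42 of the rest (61.9%). For the ETS core the medians were -0.14 with and -0.29 without, for the NRF1 core -0.24 and -0.24, and for the YY1 core -0.16 and -0.26. NDUFA10 and NDUFV3, whose promoters are given above, had GC boxes and fell, and SDHB had one and rose.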

How the data were processed

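RNA of A2780 cells was hybridised to Agilent arrays of a single colour (Cy3), 3 for each of 3 groups, 9 in all. The authors scanned the arrays and extracted spots with Agilent Feature Extraction 10.7.3.1, per the labels. The deposited processed intensity is background-subtracted and not scaled between arrays. The labels and the methods name different labelling kits. The authors also deposited log2 values for each probe, with column medians between 6.89 and 6.90, which tracked log2 of the median spot signal (r between 0.9986 and 0.9998) and whose exact normalization was not given in the sources used here. They served as an alternative.

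Outlier spots were dropped, the rest averaged for each probe, log2 taken and the 75th percentile of the gene probes of each array subtracted. Probes (62976 spots, 4259 of them controls) were named through RefSeq genes of GRCh38.p14: 25715 of 42405 gene probes had a name, and 618 probes with an mRNA accession had none. Kept probes had all 3 arrays of 1 or more groups well above background, and the probe with the highest mean stood for a gene. Probe sequences were not used here, so reads of pseudogenes or paralogs by a probe are uncertain.

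The 3 groups were compared with limma 3.58.1 under R 4.3.3, by a linear model with empirical Bayes moderation fitted to the 9 arrays together, with Benjamini-Hochberg adjustment over 21981 genes. The procedure was tested on simulated data. The number of arrays limits the precision. Members and lists were chosen with earlier results of these data known. Named are the catalytic and isoform genes of each complex and, per complex and comparison, the 3 that rose and the 3 that fell most. Also named are those past the fold rule, those whose probes disagree, and genes of other lists past the fold rule. Further members are given with their change, some with an adjusted p. A gene that this rule names is counted in the totals and not reported here. Alternatives were another background correction (normexp, offset 50), other scalings, filters, probe rules and call rules, a fit on only the groups compared, a replicate block and each array left out.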

Additional observations from a re-analysis of the deposited data

Results flagged for a closer look

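NDUFAF4P1, a pseudogene related to the assembly factor NDUFAF4 and outside the genes compared because its probe carries no mRNA accession, was well above background on 80 nM replicate 1 alone, at a level of -3.24, and on none of the untreated arrays. It was flagged because a signal stood above background in a probe that the comparisons did not use.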

How the results depend on the processing

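The slide of the 80 nM arrays cannot be told apart from the concentration, and with 3 arrays a group small changes near the threshold were not settled. At 8 nM the number that rose, 0, became 4 with quantile normalization or the authors' log2 values and 1 with the mean of the probes of a gene or every probe counted separately, and it was 0 without any one array. The number that fell, 1, became 2 with normexp, quantile normalization or the authors' log2 values, 0 with scaling to the median or to spike-in controls, with no filter on dim probes, with only the groups compared, with the replicate block, by the fold rule and by an adjusted p with a 1.5-fold limit, and with single arrays left out it lay between 0 and 11, while the median lay between -0.12 and 0.01. At 80 nM against untreated the number that rose, 8, was 0 with spike-in scaling and 3 by the fold rule, alone or with an adjusted p, and 6 to 9 with each array left out. The number that fell, 34, was 4 by the fold rule, alone or with an adjusted p, and 22 to 48 with each array left out. The median, -0.23, was -0.50 with spike-in scaling and -0.26 to -0.18 with each array left out. For 80 nM against 8 nM the number higher, 9, was 0 with spike-in scaling, 14 with every probe counted separately, 5 by the fold rule, alone or with an adjusted p, and 7 to 13 with each array left out. The number lower, 31, was 7 by the fold rule, 6 with an adjusted p and a 1.5-fold limit and 19 to 32 with each array left out. The median, -0.15, was -0.26 with scaling to the median, -0.50 with spike-in scaling and -0.21 to -0.06 with each array left out. Among the genes reported, directions turned with spike-in scaling for ATP5F1D (-0.093 against untreated, -0.098 against 8 nM), ATP5F1C (-0.11 against 8 nM) and SDHD (-0.040 against 8 nM), and with the mean of its probes for UQCRB (0.33 and 0.13). The cause was not tested, except that spike-in scaling lowers every gene at 80 nM alike and that the probes of UQCRB differ in direction. The main fit did not pair arrays by replicate number. Deviations of same-numbered arrays correlated at 0.10 to 0.16 between untreated and 8 nM. They correlated at -0.08 to -0.004 between untreated and 80 nM and at -0.12 to 0.01 between 8 nM and 80 nM. Different-numbered arrays were not compared, so these values cannot settle whether the numbers pair the arrays. The replicate block gave 0 and 0, 7 and 32, and 9 and 24 genes that rose and fell in the 3 comparisons. All other alternatives left these counts within 1.5 times their value.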
